A study of Mus musculus with 9 samples.

Results

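The endoplasmic reticulum (ER) chaperones and degradation machinery were followed through 32 genes, which were matched by symbol in the authors' deposited table, out of 24647 symbols. The arrays measured 41345 transcript clusters, sets of probes that are each summarised as 1 transcript, with or without a symbol. A total of 36 clusters carried a member's symbol, and each member was represented by the cluster with the highest mean over all arrays. The genes were chosen by function, as the arm of the unfolded protein response without the amino acid genes of its ATF4 branch. The 9 arrays came from 3 lines of embryonic mouse fibroblasts (MEFs), the cells that lay down the matrix of connective tissue, with 3 arrays a line. Per the file headers, these are the MEF with human APE1 (human APE1), the MEF with mouse Ape1 (mouse Ape1) and the MEF with the vector (vector control). Human APE1 and its mouse homologue Ape1 cut DNA where a base has been lost and also act on the redox state of transcription factors. All 3 groups share their origin: male cells without either copy of mouse Ape1 and with a human APE1 transgene, so vector control cannot be assumed to lack human APE1. The series' text describes very low Ape1 in these MEFs. The strain is given as isogenic to C56BL/6, and cells were taken while still dividing, from 60 mm dishes with 10% serum. Each group is 1 line, so line and construct cannot be told apart, and p-values measure the spread between dishes of a line. Neither the making of the lines nor whether they are clones is described in the sources used here. Apex1 itself is not analysed here. In RNA from whole dishes, fewer cells of a type and less RNA per cell cannot be told apart.

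Proteins bound for secretion or for membranes fold in the ER, where Hsp70 and Hsp90 chaperones, lectin chaperones and disulfide isomerases act on them, and those that fail to fold are sent back to the cytosol and degraded. When unfolded proteins build up, the sensors IRE1 (Ern1), ATF6 (Atf6) and PERK (Eif2ak3) raise the unfolded protein response: IRE1 splices the Xbp1 messenger RNA, ATF6 is cut to release a transcription factor, and PERK slows translation. XBP1 and the ATF6 fragment then raise chaperone and degradation genes through ER stress response elements in their promoters. Fibroblasts secrete large amounts of collagen, a cargo that depends on this machinery.

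Promoter letters are shown for the members that passed a test and whose promoter held an ER stress response element, since these letters are the textbook route from the sensors to the genes. RefSeq promoters (assembly GRCm38.p6, 250 bases before to 50 after each start) were matched for 27 of the 32 members. The element ERSE was searched as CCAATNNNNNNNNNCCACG and the element ERSE-II as ATTGGNCCACG, on both strands, with N any base. The third element, UPRE, was searched as TGACGTGG. Its reverse complement contains CCACG and could share those letters with an ERSE. Each line gives the strand of the gene 5′ to 3′, with the fixed letters of the element in capitals.

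Calr, ERSE on the opposite strand, chr8:84847055-84847113, minus strand: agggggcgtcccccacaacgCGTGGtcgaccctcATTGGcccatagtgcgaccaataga
Pdia6, ERSE, chr12:17266471-17266529, plus strand: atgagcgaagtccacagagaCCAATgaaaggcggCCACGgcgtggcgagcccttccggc
Dnajc3, ERSE, chr14:118937807-118937865, plus strand: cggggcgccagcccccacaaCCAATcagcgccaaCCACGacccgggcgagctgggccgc
Creld2, ERSE on the opposite strand, chr15:88819500-88819558, plus strand: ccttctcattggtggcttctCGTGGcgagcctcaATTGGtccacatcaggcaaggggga
Herpud1, ERSE-II, chr8:94386357-94386407, plus strand: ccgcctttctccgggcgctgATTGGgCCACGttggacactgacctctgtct
Dnajb11, ERSE-II, chr16:22857843-22857871, plus strand: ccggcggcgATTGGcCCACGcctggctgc

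The element of Dnajb11 lies past the start of its transcript, so only 29 bases are shown, and the other 5 lie before the start. ERSE letters were found in 9 of the 27 members (33.3%), against 0.137% of 27025 genes. Beside Calr, Pdia6, Dnajc3 and Creld2 these were Hspa5, Hsp90b1, Canx, Derl3 and Syvn1, none of which passed on the values as deposited. ERSE-II letters were found in 2 members (7.41%) and in 0.0444% of genes. UPRE letters were in 0 of the 27 members and in 0.714% of genes. A match of letters describes the window and is not a site. The members were chosen as genes of this response, so their share of ERSE letters reflects that choice and is not a result of these arrays.

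Values are log2 intensities as deposited, and array medians lay between 5.64 and 5.75. The precision is limited by the 3 arrays of a group: the standard error (SE) of a member's difference lay between 0.0496 and 0.131 on the log2 scale. Over all clusters, r between arrays was 0.99 to 0.993 within a group and 0.977 to 0.987 across groups. A gene is said to have risen or fallen where its adjusted p in limma, over all 41345 clusters of that comparison, was under 0.05. All 9 fibroblast markers had means at or above the median of all clusters, 5.69. Their level averaged over the list ran between 9.26 and 9.35 on the human APE1 arrays, between 9.6 and 9.66 on those of mouse Ape1 and between 9.93 and 10.02 on those of vector control. Markers of epithelial, endothelial, macrophage and plasma cells averaged between 5.04 and 5.86 per list on all 9 arrays. Of these markers only Cdh5 and Sdc1 were called, 0.32 and 0.59 higher in mouse Ape1 than in vector control and lower in human APE1 than in mouse Ape1. Group means of Ptprc, the leukocyte antigen CD45, lay between 3.4 and 3.57, and those of Epcam, an epithelial adhesion protein, between 4.35 and 4.43. Means at or above 5.69 were found for 2 markers each of the epithelial, endothelial and plasma cell lists and for 1 of the macrophage list, the brightest being Sdc1 (mean 8.72 over the 9 arrays), Cd68 (7.72) and Krt8 (6.51).

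In human APE1 against vector control 11 of the 32 members fell, 2 rose and 19 were not called. The falls were in Hyou1, Dnajb11, Dnajc3, Sdf2l1, Ero1l, Sel1l, Herpud1, Derl1, Edem1, Creld2 and Manf. The rises were in Xbp1 and Os9, and the median difference of the members was −0.09 against 0.02 for all clusters. Over all clusters 6.35% fell and 5.40% rose, 11.8% in all, so that rises made up 46.0% of the calls. With array medians subtracted 12 members fell and 1 rose, and rises were 35.9% of all calls. Bright genes pass more often: of 7408 symbols with a mean of at least 8, 33.3% were called, 1371 down and 1094 up, against 12 of the 28 members as bright as that. The limit of 8 was chosen after seeing the data.

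In mouse Ape1 against vector control, 8 members rose: Hyou1, Dnajb9, Pdia6, Erp44, Atf6, Xbp1, Herpud1 and Os9. 5 fell, Dnajc3, Sel1l, Derl1, Creld2 and Manf, and the median over the members was −0.02 against 0.0 for all clusters. Over all clusters 9.09% rose and 7.07% fell, 16.2% in all, and rises made up 56.2% of the calls. This balance depended on the scaling: with array medians subtracted 4 members rose and 5 fell, and rises were 44.5% of all calls. In the deposited values 40.0% of the bright symbols were called, against 12 of the 28 bright members. Both comparisons use the same vector control arrays, so their values are not independent.

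Between the lines that carry an APE1 construct, human APE1 was lower than mouse Ape1 for 11 members: Hyou1, Dnajb9, Dnajb11, Sdf2l1, Calr, P4hb, Pdia6, Ero1l, Atf6, Herpud1 and Edem1. It was higher for Dnajc3. Over all clusters 7.50% were lower and 4.91% higher, 12.4% in all, with 35.2% of the bright symbols called, against 12 of the 28 bright members. Rises made up 39.5% of the calls over all clusters, and 49.2% (2636 higher, 2718 lower) after a second quantile normalization. Under that normalization 8 members were lower and 1 higher, and with array medians subtracted 7 were lower and 1 higher. The median difference was −0.14 over the members and 0.02 over all clusters. In the F-test of the 3 groups 18 of the 32 members passed, against 20.4% of all clusters and 54.3% of the bright symbols. In each comparison 42.9% of the bright members were called, within 10 percentage points of the bright symbols.

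**Figure D1:**
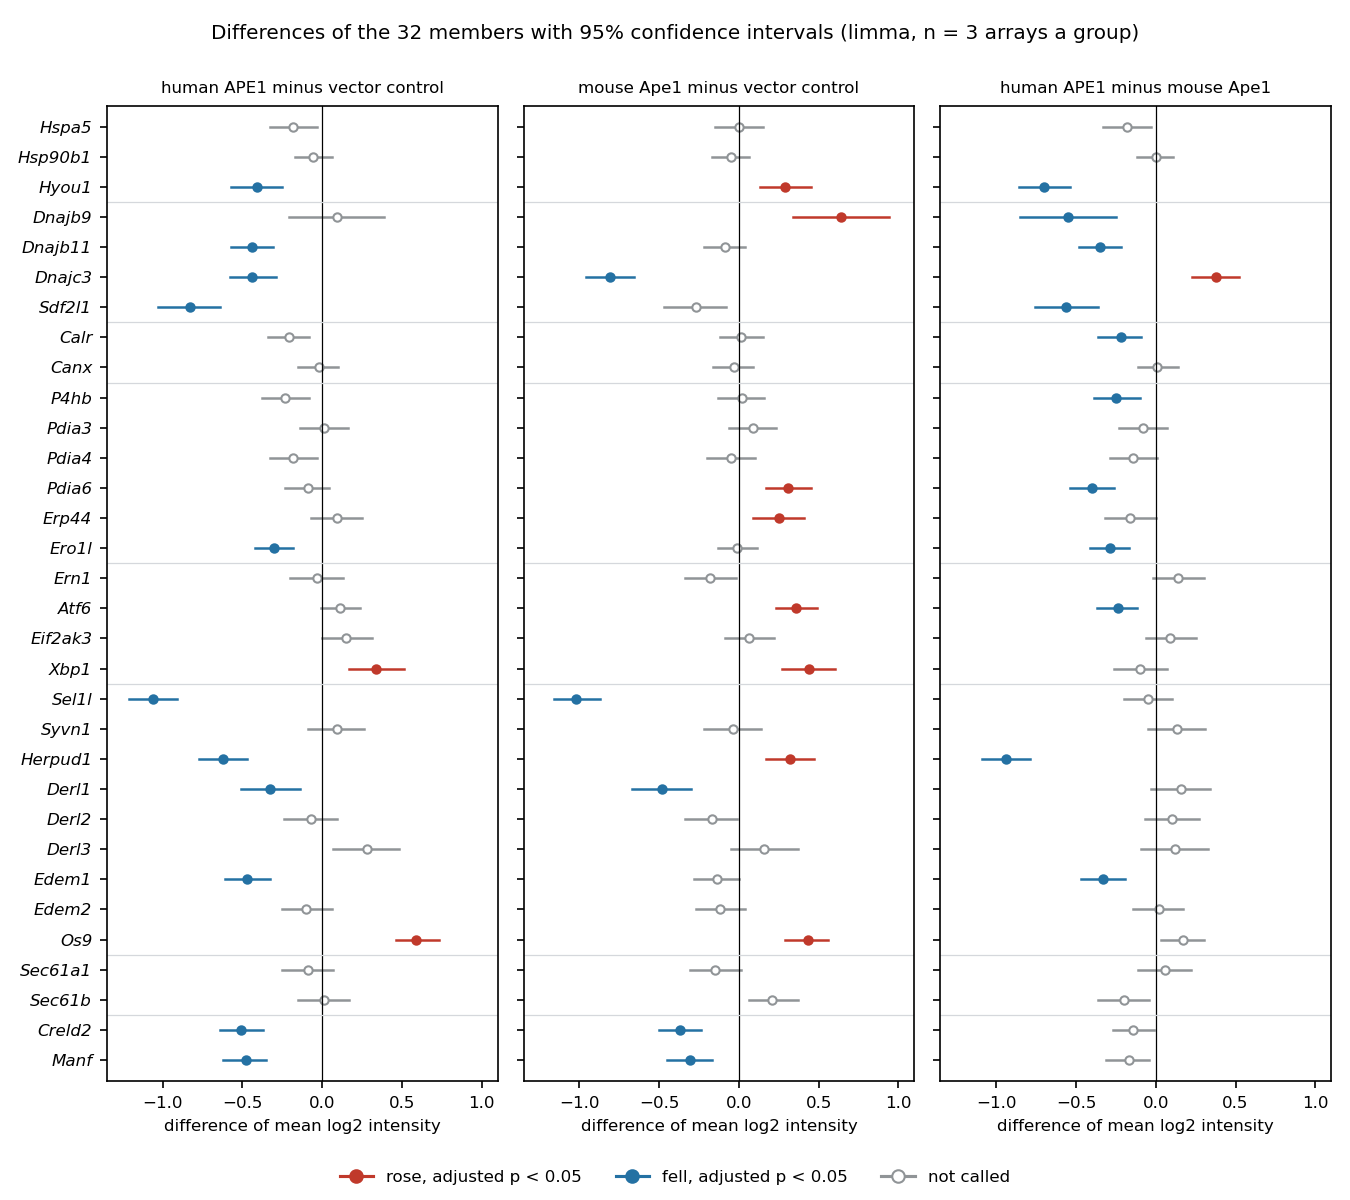
Difference of mean log2 intensity with its 95% confidence interval for each of the 32 members, in order of their roles, for human APE1 minus vector control on the left, mouse Ape1 minus vector control in the middle and human APE1 minus mouse Ape1 on the right, n = 3 arrays a group. Red points rose and blue points fell at an adjusted p under 0.05, and open grey points were not called. Sel1l lies at −1.06 and −1.02 in the first 2 panels, while Hyou1 and Herpud1 lie left of 0 in the first and right of it in the second.

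Of the Hsp70 and Hsp90 chaperones, Hyou1 alone passed on the values as deposited, and the calls of Hspa5 and Hsp90b1 after neighbour medians were subtracted are given further on. Hyou1 (GRP170) is an Hsp70-like chaperone that also exchanges the nucleotide of BiP. The 3 arrays gave Hyou1 10.57, 10.62 and 10.7 in human APE1, 11.37, 11.35 and 11.26 in mouse Ape1 and 11.14, 10.98 and 10.99 in vector control. The 3 groups did not overlap, with human APE1 lowest and mouse Ape1 highest. Hyou1 fell 1.33-fold (−0.41 ± 0.07 SE, adjusted p = 0.00702) in human APE1 against vector control, and rose 1.22-fold (0.29 ± 0.07 SE, adjusted p = 0.0236) in mouse Ape1. For mouse Ape1 against vector control, Hyou1 lost its call without mouse Ape1 1 or 2 or vector control 2 or 3 (adjusted p = 0.0726 to 0.0831). Nor did that call hold after array medians were subtracted (adjusted p = 0.121). Human APE1 was lower than mouse Ape1 1.62-fold (−0.7 ± 0.07 SE, adjusted p = 0.000441). Hspa5 (BiP), the Hsp70 of the ER lumen and the usual marker of the response, was not called on these values. For Hspa5 the human APE1 arrays read 10.68, 10.54 and 10.72, those of mouse Ape1 10.87, 10.81 and 10.79 and those of vector control 10.88, 10.82 and 10.77. The human APE1 arrays all lay below the others, but the difference to vector control was −0.18 with a 95% interval of −0.33 to −0.03 (adjusted p = 0.138). Hsp90b1 (GRP94), the Hsp90 of the ER, spanned only 13.03 to 13.15 over the 9 arrays, and its difference to vector control was −0.06 in human APE1 and −0.05 in mouse Ape1. Human APE1 and mouse Ape1 differed by 0.0 in Hsp90b1 (95% interval −0.12 to 0.11).

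The J-domain proteins hand clients to BiP and start its ATP cycle, and all 4 BiP co-chaperones passed at least 1 test. Of all 32 members 19 were called in at least 1 comparison, and 54.3% of the bright symbols passed the F-test. Sdf2l1, a partner of the J-domain protein ERdj3, had the largest fall of the 4 co-chaperones in human APE1. Levels of Sdf2l1 were 8.34, 8.11 and 8.36 in human APE1, 8.81, 8.94 and 8.73 in mouse Ape1 and 9.07, 9.13 and 9.12 in vector control. No groups overlapped, and vector control was highest. Sdf2l1 fell 1.78-fold (−0.83 ± 0.09 SE, adjusted p = 0.000711) in human APE1, and its difference in mouse Ape1 was −0.27 ± 0.09 (SE, adjusted p = 0.0692). Human APE1 was lower than mouse Ape1 1.47-fold (−0.56 ± 0.09 SE, adjusted p = 0.00391). Dnajb11 is ERdj3 itself. Dnajb11 read 9.88, 9.88 and 9.89 in human APE1, 10.23, 10.3 and 10.15 in mouse Ape1 and 10.33, 10.32 and 10.31 in vector control. The human APE1 arrays agreed within 0.01 of each other and lay below all the rest. Dnajb11 fell 1.35-fold (−0.44 ± 0.06 SE, adjusted p = 0.00216) in human APE1 against vector control and was lower than in mouse Ape1 1.27-fold (−0.35 ± 0.06 SE, adjusted p = 0.00525). In mouse Ape1 the difference to vector control was −0.09 ± 0.06 (SE, adjusted p = 0.351).

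Dnajc3 (p58IPK), a J-domain protein of the ER lumen that is also described as an inhibitor of PERK, had another order. Dnajc3 had values of 9.74, 9.71 and 9.73 in human APE1, 9.36, 9.41 and 9.28 in mouse Ape1 and 10.26, 10.11 and 10.12 in vector control. Here mouse Ape1 was lowest and vector control highest, with no overlap. Dnajc3 fell 1.75-fold (−0.81 ± 0.06 SE, adjusted p = 0.000126) in mouse Ape1 and 1.35-fold (−0.44 ± 0.06 SE, adjusted p = 0.00369) in human APE1. Human APE1 was higher than mouse Ape1 1.3-fold (0.38 ± 0.06 SE, adjusted p = 0.00624). Dnajb9 (ERdj4), which also binds IRE1, was called against vector control in mouse Ape1 and not in human APE1. The 3 arrays gave Dnajb9 8.51, 8.29 and 8.69 in human APE1, 8.91, 9.26 and 8.99 in mouse Ape1 and 8.36, 8.32 and 8.56 in vector control. The mouse Ape1 arrays lay above all others, which overlapped with each other. Dnajb9 rose 1.56-fold (0.64 ± 0.13 SE, adjusted p = 0.013) in mouse Ape1, against a difference of 0.09 ± 0.13 (SE, adjusted p = 0.754) in human APE1. Human APE1 was lower than mouse Ape1 1.47-fold (−0.55 ± 0.13 SE, adjusted p = 0.0287). The call of Dnajb9 in human APE1 against mouse Ape1 did not hold without human APE1 1 or 2 or mouse Ape1 2 or 3 (adjusted p = 0.0668 to 0.0879). It did not hold after array medians were subtracted (adjusted p = 0.0508) or in a fit of these groups alone (adjusted p = 0.0623).

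**Figure D2:**
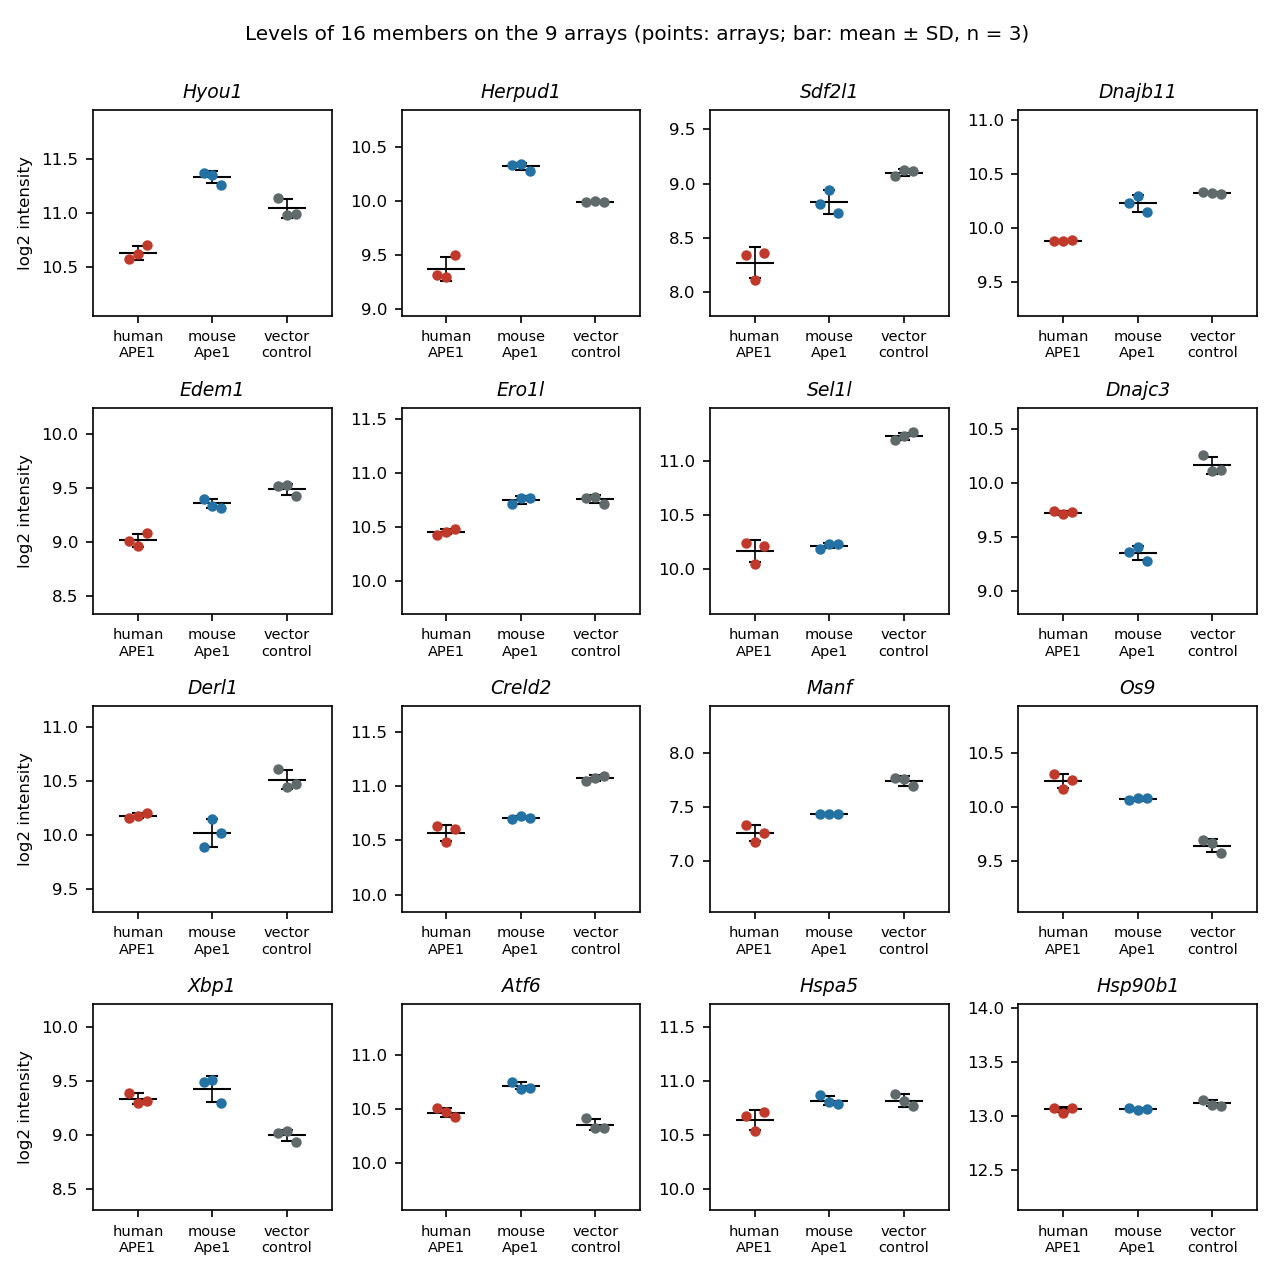
Log2 intensity of 16 members on each array, for human APE1 (red), mouse Ape1 (blue) and vector control (grey), with the mean and SD of 3 arrays as bars and an axis of equal span in each panel. Hyou1 and Herpud1 are lowest in human APE1 and highest in mouse Ape1, Sel1l is about 1 log2 unit lower in both lines than in vector control, and Hsp90b1 spans 13.03 to 13.15.

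The lectin chaperones calreticulin (Calr, soluble) and calnexin (Canx, in the membrane) hold glycoproteins while they fold. For Calr the human APE1 arrays read 12.55, 12.46 and 12.46, those of mouse Ape1 12.69, 12.76 and 12.69 and those of vector control 12.76, 12.68 and 12.66. The human APE1 arrays lay below the other 6. Calr was lower in human APE1 than in mouse Ape1 1.17-fold (−0.22 ± 0.06 SE, adjusted p = 0.0424), and its difference to vector control was −0.21 ± 0.06 (SE, adjusted p = 0.0548). For human APE1 against mouse Ape1, Calr lost its call without human APE1 1, 2 or 3, mouse Ape1 1, 2 or 3 or vector control 2 or 3 (adjusted p = 0.0511 to 0.131). Nor did that call hold after array medians were subtracted (adjusted p = 0.104), in a fit of these groups alone (adjusted p = 0.0735) or after a second quantile normalization (adjusted p = 0.0823). Canx spanned 12.58 to 12.68 with all groups overlapping, and no difference exceeded 0.03 on the log2 scale.

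The disulfide isomerases form and shuffle the disulfide bonds of clients. In this group 4 of the 6 members were called in at least 1 comparison, against 19 of all 32 members. Of the bright symbols 54.3% passed the F-test of the 3 groups, so this count does not set the isomerases apart. Pdia6 (P5) is an isomerase that works with BiP. Levels of Pdia6 were 11.46, 11.47 and 11.57 in human APE1, 11.92, 11.9 and 11.88 in mouse Ape1 and 11.66, 11.58 and 11.53 in vector control. Mouse Ape1 lay above the rest, and human APE1 overlapped with vector control. Pdia6 rose 1.24-fold (0.31 ± 0.06 SE, adjusted p = 0.00959) in mouse Ape1, and human APE1 was lower than mouse Ape1 1.32-fold (−0.4 ± 0.06 SE, adjusted p = 0.0032). Its difference in human APE1 against vector control was −0.09 ± 0.06 (SE, adjusted p = 0.408). Pdia6 lost its call in mouse Ape1 against vector control after array medians were subtracted (adjusted p = 0.0745). Ero1l, the oxidase that recharges the isomerases, moved in human APE1. Ero1l read 10.43, 10.46 and 10.48 in human APE1, 10.71, 10.77 and 10.77 in mouse Ape1 and 10.77, 10.78 and 10.71 in vector control. The other groups overlapped with each other above it. Ero1l fell 1.23-fold (−0.3 ± 0.05 SE, adjusted p = 0.00869) against vector control and was lower than in mouse Ape1 1.23-fold (−0.29 ± 0.05 SE, adjusted p = 0.00812). On the second, dimmer cluster of Ero1l the difference to vector control was −0.43 (adjusted p = 0.0845).

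P4hb, the founding protein disulfide isomerase and a subunit of the collagen prolyl hydroxylase, was also lowest in human APE1. P4hb had values of 11.91, 11.77 and 11.86 in human APE1, 12.09, 12.15 and 12.03 in mouse Ape1 and 12.13, 12.06 and 12.03 in vector control. Human APE1 lay below both other groups, which overlapped. P4hb was lower in human APE1 than in mouse Ape1 1.19-fold (−0.25 ± 0.06 SE, adjusted p = 0.0401), with a difference to vector control of −0.23 ± 0.06 (SE, adjusted p = 0.0549). For human APE1 against mouse Ape1, P4hb lost its call without human APE1 1, 2 or 3, mouse Ape1 1, 2 or 3 or vector control 2 or 3 (adjusted p = 0.053 to 0.127). Nor did that call hold after array medians were subtracted (adjusted p = 0.106), in a fit of these groups alone (adjusted p = 0.0762) or after a second quantile normalization (adjusted p = 0.0547). Erp44 retrieves ER proteins and unfinished clients from the Golgi. The 3 arrays gave Erp44 8.87, 8.66 and 8.82 in human APE1, 8.95, 8.96 and 8.93 in mouse Ape1 and 8.76, 8.66 and 8.65 in vector control. Human APE1 overlapped with vector control, and mouse Ape1 lay above both. Erp44 rose 1.19-fold (0.25 ± 0.07 SE, adjusted p = 0.0421) in mouse Ape1. The call of Erp44 in mouse Ape1 against vector control did not hold without human APE1 3, mouse Ape1 1, 2 or 3 or vector control 1, 2 or 3 (adjusted p = 0.0508 to 0.113). It did not hold after array medians were subtracted (adjusted p = 0.175) or after a second quantile normalization (adjusted p = 0.0587). Pdia3 (ERp57), the partner of the lectins, and Pdia4 (ERp72) were not called. Their differences ran from −0.18 (Pdia4, human APE1 minus vector control) to 0.09 (Pdia3, mouse Ape1 minus vector control).

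Among the sensors, Atf6 rose in mouse Ape1. For Atf6 the human APE1 arrays read 10.51, 10.48 and 10.43, those of mouse Ape1 10.75, 10.69 and 10.7 and those of vector control 10.42, 10.33 and 10.33. No groups overlapped, and the order was mouse Ape1, human APE1, vector control. Atf6 rose 1.28-fold (0.36 ± 0.06 SE, adjusted p = 0.00346) in mouse Ape1, and its difference in human APE1 was 0.11 ± 0.06 (SE, adjusted p = 0.255). Human APE1 was lower than mouse Ape1 1.18-fold (−0.24 ± 0.06 SE, adjusted p = 0.0229). For human APE1 against mouse Ape1, Atf6 lost its call without human APE1 2 or 3 or mouse Ape1 1, 2 or 3 (adjusted p = 0.0556 to 0.0823). Nor did that call hold after array medians were subtracted (adjusted p = 0.0527) or after a second quantile normalization (adjusted p = 0.0542). Xbp1 encodes the transcription factor that IRE1 activates. Levels of Xbp1 were 9.39, 9.3 and 9.32 in human APE1, 9.49, 9.51 and 9.3 in mouse Ape1 and 9.02, 9.04 and 8.94 in vector control. Vector control lay below both other groups, which overlapped. Xbp1 rose 1.27-fold (0.34 ± 0.07 SE, adjusted p = 0.0204) in human APE1 and 1.35-fold (0.44 ± 0.07 SE, adjusted p = 0.00515) in mouse Ape1. The call of Xbp1 in human APE1 against vector control did not hold without human APE1 1 or 2 or vector control 1 or 3 (adjusted p = 0.0504 to 0.0743). It did not hold after array medians were subtracted (adjusted p = 0.0609). Its cluster sums spliced and unspliced RNA, so splicing by IRE1 was not measured. Ern1 and Eif2ak3, which encode the sensor kinases IRE1 and PERK, were not called in any comparison. Their differences lay between −0.18 (Ern1, mouse Ape1 minus vector control) and 0.15 (Eif2ak3, human APE1 minus vector control).

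The degradation machinery held the largest change of all members in the 3 comparisons. Sel1l is the adaptor that links the ligase Hrd1 to its clients. Sel1l read 10.24, 10.05 and 10.22 in human APE1, 10.19, 10.23 and 10.23 in mouse Ape1 and 11.2, 11.23 and 11.27 in vector control. Vector control lay about 1 log2 unit above both other groups, which overlapped. Sel1l fell 2.09-fold (−1.06 ± 0.07 SE, adjusted p = 5.14e-05) in human APE1 and 2.02-fold (−1.02 ± 0.07 SE, adjusted p = 4.73e-05) in mouse Ape1. Human APE1 and mouse Ape1 differed by −0.05 (95% interval −0.2 to 0.1). Syvn1, which encodes Hrd1 itself, was not called, with a difference of 0.09 in human APE1 (95% interval −0.09 to 0.26) and −0.04 in mouse Ape1 (95% interval −0.22 to 0.14). Os9, a lectin that brings glycoproteins to Sel1l, moved the other way. Os9 had values of 10.3, 10.17 and 10.25 in human APE1, 10.06, 10.08 and 10.08 in mouse Ape1 and 9.69, 9.67 and 9.57 in vector control. No groups overlapped, with human APE1 highest and vector control lowest. Os9 rose 1.51-fold (0.59 ± 0.06 SE, adjusted p = 0.000577) in human APE1 and 1.34-fold (0.43 ± 0.06 SE, adjusted p = 0.00215) in mouse Ape1.

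Herpud1 (Herp), a membrane protein that joins the same ligase complex, differed most between human APE1 and mouse Ape1. The 3 arrays gave Herpud1 9.32, 9.3 and 9.5 in human APE1, 10.33, 10.34 and 10.28 in mouse Ape1 and 9.99, 10 and 9.99 in vector control. The groups were far apart, and the vector control arrays agreed within 0.01. Herpud1 fell 1.53-fold (−0.62 ± 0.07 SE, adjusted p = 0.000791) in human APE1 and rose 1.25-fold (0.32 ± 0.07 SE, adjusted p = 0.0121) in mouse Ape1. Herpud1 lost its call in mouse Ape1 against vector control after array medians were subtracted (adjusted p = 0.0788). Human APE1 was lower than mouse Ape1 1.92-fold (−0.94 ± 0.07 SE, adjusted p = 8.05e-05). Edem1 trims mannose from glycoproteins bound for degradation. For Edem1 the human APE1 arrays read 9.01, 8.97 and 9.09, those of mouse Ape1 9.4, 9.34 and 9.32 and those of vector control 9.52, 9.53 and 9.43. Human APE1 was lowest and vector control highest, with no overlap. Edem1 fell 1.39-fold (−0.47 ± 0.06 SE, adjusted p = 0.00188) in human APE1 against vector control and was lower than in mouse Ape1 1.26-fold (−0.33 ± 0.06 SE, adjusted p = 0.00801). On its second cluster, with a mean of 5.01, these differences were −0.07 (adjusted p = 0.672) and −0.09 (adjusted p = 0.59).

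The derlins are membrane proteins of the export channel. Levels of Derl1 were 10.16, 10.18 and 10.2 in human APE1, 9.89, 10.15 and 10.02 in mouse Ape1 and 10.61, 10.44 and 10.47 in vector control. Vector control was highest and no group overlapped with another. Derl1 fell 1.4-fold (−0.48 ± 0.08 SE, adjusted p = 0.00486) in mouse Ape1 and 1.26-fold (−0.33 ± 0.08 SE, adjusted p = 0.0336) in human APE1. The call of Derl1 in human APE1 against vector control did not hold without human APE1 1, 2 or 3, mouse Ape1 3 or vector control 1, 2 or 3 (adjusted p = 0.0585 to 0.103). Derl2 and Derl3 were not called, and Derl3 was the dimmest member, with values of 4.5 to 4.96 over the 9 arrays, where RMA compresses differences. Edem2, a relative of Edem1, was not called either, with differences of −0.1 in human APE1 and −0.12 in mouse Ape1 against vector control. Sec61a1 and Sec61b, subunits of the channel through which proteins enter the ER, were not called. Their differences lay between −0.2 (Sec61b, human APE1 minus mouse Ape1) and 0.21 (Sec61b, mouse Ape1 minus vector control).

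Creld2 and Manf encode soluble ER proteins that cells release under ER stress, and both fell in both lines. Creld2 read 10.63, 10.49 and 10.61 in human APE1, 10.7, 10.73 and 10.71 in mouse Ape1 and 11.05, 11.08 and 11.1 in vector control. All groups were apart, with vector control highest. Creld2 fell 1.42-fold (−0.51 ± 0.06 SE, adjusted p = 0.00107) in human APE1 and 1.29-fold (−0.37 ± 0.06 SE, adjusted p = 0.00364) in mouse Ape1. Manf had values of 7.33, 7.18 and 7.26 in human APE1, 7.43, 7.43 and 7.43 in mouse Ape1 and 7.77, 7.76 and 7.69 in vector control. Vector control was again highest and human APE1 lowest, with no overlap, and the mouse Ape1 arrays gave the same value to 2 decimals. Manf fell 1.4-fold (−0.48 ± 0.06 SE, adjusted p = 0.00166) in human APE1 and 1.24-fold (−0.31 ± 0.06 SE, adjusted p = 0.00939) in mouse Ape1. Human APE1 and mouse Ape1 differed by −0.14 in Creld2 (95% interval −0.27 to −0.01, adjusted p = 0.183) and by −0.17 in Manf (95% interval −0.31 to −0.04, adjusted p = 0.112).

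Whole chromosome stretches differed between the lines as well, so each member was set beside the up to 10 nearest expressed genes on either side of it. In human APE1 against vector control the neighbours of Xbp1 had a median difference of 0.36, as large as that of Xbp1 itself, which was −0.02 after their median was subtracted on each array (adjusted p = 0.898). Those of Os9 had 0.38, and Os9 was still 0.21 higher than its neighbours (adjusted p = 0.047). In mouse Ape1 against vector control the neighbours of Dnajc3 had −0.53, and Dnajc3 was −0.28 relative to them (adjusted p = 0.0228). The median of expressed genes on chromosome 12, which holds Dnajb9, Pdia6 and Sel1l, differed by 0.32 in that comparison. After subtraction of the chromosome median Pdia6 differed by −0.01 (adjusted p = 0.884), Dnajb9 by 0.32 (adjusted p = 0.0914) and Sel1l by −1.34 (adjusted p = 9.11e-07). Erp44 on chromosome 4 also lost its call under that subtraction, at 0.18 (adjusted p = 0.0833). What these stretches are was not tested.

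Of the 13 calls in human APE1 against vector control, 10 held in the same direction after neighbours were subtracted, and those of Ero1l, Xbp1 and Derl1 did not. Sel1l was then −0.96, Sdf2l1 −0.66, Herpud1 −0.56, Manf −0.53, Creld2 −0.47, Dnajc3 and Edem1 −0.46 each, Dnajb11 −0.28 and Hyou1 −0.19. Hspa5 (−0.36), Hsp90b1 (−0.24), Pdia4 (−0.21) and Pdia6 (−0.21) were called in addition, which made 13 members lower and 1, Os9, higher. Of 23451 placed symbols 10.3% were then lower and 9.59% higher. Fewer calls held in mouse Ape1 against vector control, 5 of 13: Dnajc3, Atf6, Sel1l, Os9 and Manf, with Hspa5 (−0.21) called in addition. Of all placed symbols 13.9% were lower and 10.7% higher there. Hyou1 (0.17), Dnajb9 (0.32), Pdia6 (0.12), Erp44 (0.16), Xbp1 (0.22), Herpud1 (0.07), Derl1 (−0.21) and Creld2 (−0.13) were not called there. Between human APE1 and mouse Ape1 10 of 12 calls held, Herpud1 at −0.63 and Hyou1 at −0.37 among them. Calr (−0.07) was not called, and Dnajc3 changed sign to −0.19 (adjusted p = 0.105). With Hsp90b1 (−0.27), Pdia4 (−0.21), Creld2 (−0.35) and Manf (−0.29) called in addition, 14 members were lower in human APE1 than in mouse Ape1 relative to their neighbours and 0 higher, while 9.80% of placed symbols were lower and 12.2% higher. These shares are over all placed symbols, dim ones included. On the deposited values bright symbols passed more often, 35.2% against 12.4% of all clusters between human APE1 and mouse Ape1. Their share after neighbour medians were subtracted was not counted, so these counts of members lack a background of like brightness. Both subtractions were chosen after seeing the data.

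**Figure D3:**
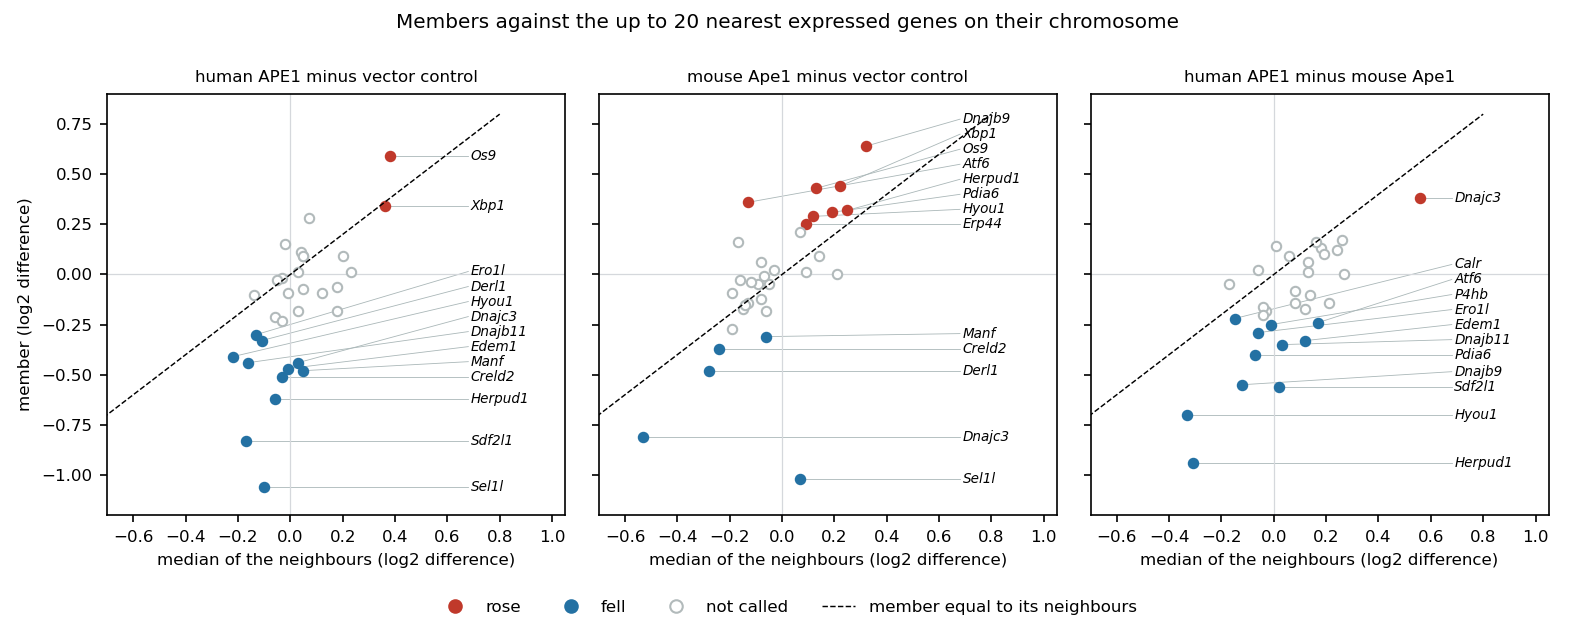
Log2 difference of each member (vertical axis) against the median log2 difference of the up to 20 nearest expressed genes on its chromosome (horizontal axis), with 1 panel for each comparison. On the dashed line a member differs by as much as its neighbours: Xbp1 sits on it in the first panel (0.34 against 0.36), while Sel1l lies far below it in the first 2 panels and Herpud1 in the third (−0.94 against −0.31).

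The surrounding machinery was counted in 8 other lists with 118 measured genes. In human APE1 against vector control 35 of them fell and 8 rose, with a median of −0.08. The 43 called are 36.4% of the 118, near the 33.3% of bright symbols. The calls of the bright symbols divided more evenly, with 1371 falls and 1094 rises. Of 18 other ER folding factors 11 fell and 1 rose, with a median of −0.3. The largest falls were in Ppic (−1.01 ± 0.08 SE, adjusted p = 0.00024), a prolyl isomerase, and Fkbp14 (−0.62 ± 0.11, adjusted p = 0.00797), a prolyl isomerase for collagen, and the rise was in Cnpy2 (0.46 ± 0.05, adjusted p = 0.00133). Of 14 other disulfide isomerases and related oxidases 6 fell, led by Qsox1 (−0.7 ± 0.06, adjusted p = 0.000252) and Prdx4 (−0.67 ± 0.11, adjusted p = 0.00737), and Tmx2 rose (0.36). In the signal peptide and translocation machinery 7 of 20 fell, led by the signal peptidase subunit Sec11c (−0.72 ± 0.09, adjusted p = 0.00175), and Sec61g rose (0.41). Of 14 oligosaccharyltransferase and glucosidase genes 4 fell, led by Ostc (−0.7 ± 0.09, adjusted p = 0.00164), and Ganab rose (0.44). Of 20 other degradation genes 4 fell, led by the glycanase Ngly1 (−0.78 ± 0.1, adjusted p = 0.0019), and Ube2j1 rose (0.25). The neighbours of Cnpy2, Sec61g and Ube2j1 had medians of 0.48, 0.48 and 0.2. Relative to their neighbours these 3 genes differed by −0.02 (adjusted p = 0.825), −0.07 (0.67) and 0.05 (0.53).

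The same 118 genes divided evenly in mouse Ape1 against vector control, with 21 that rose, 22 that fell and a median of −0.01. The 43 called are again 36.4%, against 40.0% of bright symbols. Ssr4, a subunit of the translocon-associated complex, rose (0.72 ± 0.09 SE, adjusted p = 0.00116), as did the transmembrane isomerase Tmx1 (0.68 ± 0.09, adjusted p = 0.00178). Ssr4 lies on the X chromosome and Tmx1 on chromosome 12, and their neighbours had medians of 0.29 and 0.79. Relative to them Tmx1 differed by −0.11 (adjusted p = 0.38). Herpud2, a relative of Herpud1, rose (0.67 ± 0.07, adjusted p = 0.00072), while Ngly1 fell (−0.74 ± 0.1, adjusted p = 0.00173). Atf6b, a relative of Atf6, rose (0.49 ± 0.07, adjusted p = 0.00319). Of the 18 other folding factors 2 rose, Dnajc1 (0.34) and Hspa13 (0.27), and 3 fell, led by Fkbp14 (−0.66) and Fkbp11 (−0.35), with a median of 0.01. After neighbour medians were subtracted Dnajc1 (0.08, adjusted p = 0.401) and Hspa13 (0.12, adjusted p = 0.142) were not called.

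Between human APE1 and mouse Ape1, 33 of the 118 were lower in human APE1 and 11 higher, 37.3% in all against 35.2% of bright symbols, with a median of −0.03. Ssr4 (−1.12 ± 0.09 SE, adjusted p = 0.000139), Herpud2 (−1.02 ± 0.07, adjusted p = 9.27e-05), Ppic (−0.99 ± 0.08, adjusted p = 0.00022), Prdx4 (−0.98 ± 0.11, adjusted p = 0.000963) and Hspa13 (−0.74 ± 0.07, adjusted p = 0.000318) were lower. Relative to their neighbours these genes differed less, by −0.51, −0.57, −0.88, −0.5 and −0.25 in that order, and were still called. Ganab, a glucosidase subunit, was higher (0.33 ± 0.05, adjusted p = 0.00515), but not called relative to its neighbours (0.13, adjusted p = 0.0978). Of 9 genes of the ATF4 branch 2 rose in human APE1 against vector control. They were the stress factor Ddit3 (CHOP, 0.48 ± 0.06, adjusted p = 0.00242) and Sesn2 (0.36 ± 0.07, adjusted p = 0.01). The neighbours of Ddit3 had a median of 0.39, and relative to them it differed by 0.09 (adjusted p = 0.41). In mouse Ape1 3 rose, led by Sesn2 (1.03 ± 0.07, adjusted p = 4.84e-05) and Chac1 (1.01 ± 0.07, adjusted p = 5.07e-05), and 0 fell in either line. Between the 2 lines 4 of the 9 were lower in human APE1, led by Chac1 (−0.88) and Sesn2 (−0.66). Ddit3 was higher (0.32), but not called relative to its neighbours (0.06, adjusted p = 0.591). Against vector control 33.3% of the bright symbols were called in human APE1 and 40.0% in mouse Ape1. Of 13 cytosolic and mitochondrial chaperones 2 fell, Bag3 (−0.29) and Hsf1 (−0.27), and 0 rose in human APE1, while 2 rose and 3 fell in mouse Ape1, where the heat-inducible Hspa1b rose (1.23 ± 0.17, adjusted p = 0.00192). Hspa1b was dim, with group means of 5.07 in human APE1, 5.72 in mouse Ape1 and 4.49 in vector control. Of 10 other sensors and regulators Traf2 rose (0.59) and Mbtps2 fell (−0.41) in human APE1, and Atf6b (0.49) and Mbtps2 (0.28) rose in mouse Ape1. After neighbour medians were subtracted, Bag3 (adjusted p = 0.24), Hsf1 (0.136) and Mbtps2 (0.0661) were not called in human APE1, nor Mbtps2 (0.954) in mouse Ape1.

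**Figure D4:**
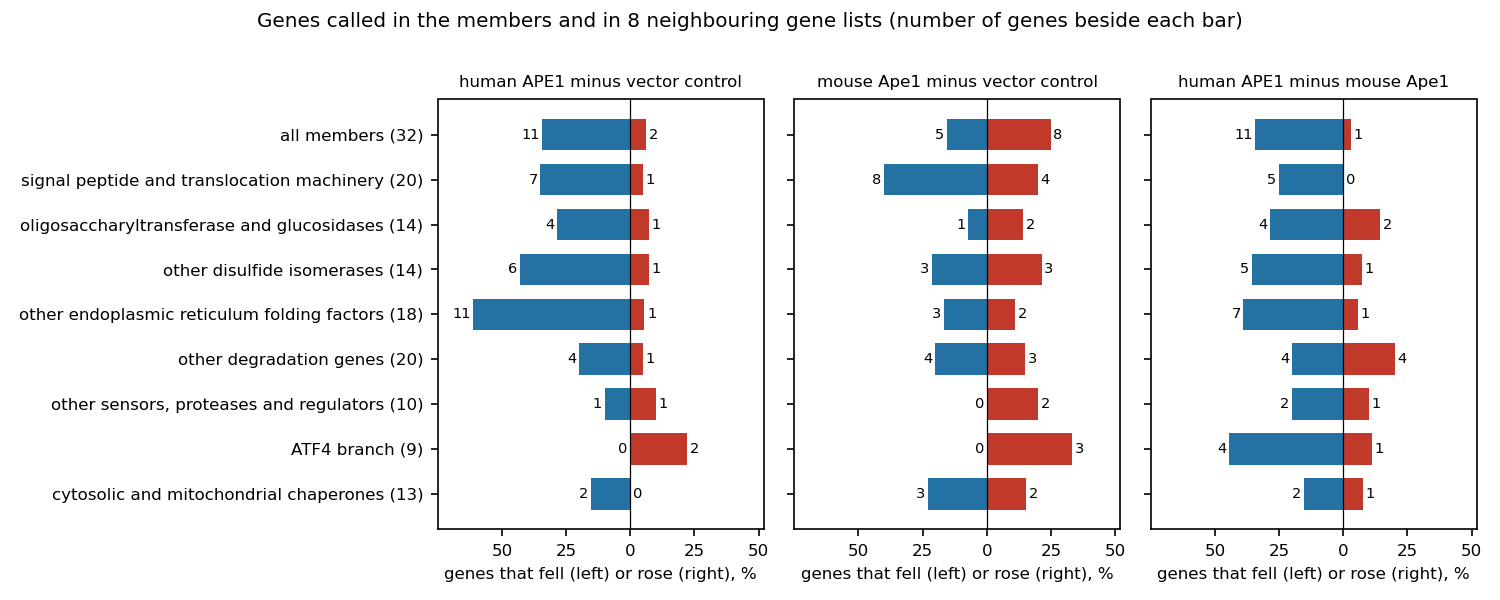
Share of genes that fell (left of 0) or rose (right of 0) at an adjusted p under 0.05 in the 32 members and in 8 lists around them, with the number of genes beside each bar and the number measured after each list's name. In human APE1 minus vector control 11 of 18 other ER folding factors fell, while 0 of the 9 genes of the ATF4 branch did.

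The collagen genes among the fibroblast markers were called in both lines against vector control. Col1a1 was −0.94 in human APE1 and −0.32 in mouse Ape1 against vector control (adjusted p = 8.29e-05 and 0.0116), and Col3a1 −0.87 and −1.22 (adjusted p = 0.000831 and 0.000107). Col1a2 was −0.68 in human APE1 and 0.52 in mouse Ape1 (adjusted p = 0.000364 and 0.000993). In all 6 of 9 fibroblast markers fell in human APE1, while Vim (0.19), Thy1 (−0.07) and Fn1 (−0.02, adjusted p = 0.863) were not called. In mouse Ape1 6 fell, Fn1 (−0.2, adjusted p = 0.0407) among them, and 2 rose. Of all clusters 11.8% were called in human APE1 and 16.2% in mouse Ape1, and of the bright symbols 33.3% and 40.0%. The part of cargo in the chaperone values was not tested.

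Among the 11 members with ERSE or ERSE-II letters 4 fell and 0 rose in human APE1 against vector control, with a median of −0.18 and a range of −0.62 (Herpud1) to 0.28 (Derl3). Of the 16 members whose window held neither, 4 fell and 2 rose, with a median of −0.05 and a range of −1.06 (Sel1l) to 0.59 (Os9). In mouse Ape1 2 rose and 2 fell among the 11, and 4 rose and 1 fell among the 16. For human APE1 against vector control 11.8% of all clusters and 33.3% of the bright symbols were called. For mouse Ape1 against vector control these shares were 16.2% and 40.0%. The 6 members whose letters are printed above include Herpud1 and Pdia6, which rose in mouse Ape1, beside Dnajc3 and Creld2, which fell there. The difference between members with and without the letters was not tested.

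The authors' deposited table, whose group means come from another summary of the arrays, had every called member in the same direction: 13, 13 and 12 in the 3 comparisons. Its unadjusted p-value was under 0.05 for 13 of these in human APE1 against vector control, for 12 in mouse Ape1 against vector control and for 11 between human APE1 and mouse Ape1. Between human APE1 and mouse Ape1 the authors' deposited table gave a linear ratio, human over mouse, of 0.541 for Herpud1 and 0.607 for Hyou1. The other ratios of the authors' deposited table have vector control on top: against human APE1 they were 2.13 for Sel1l, 1.65 for Sdf2l1 and 1.51 for Herpud1, and against mouse Ape1 2.01 for Sel1l and 1.67 for Dnajc3.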

How the data were processed

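RNA from 9 dishes of mouse embryonic fibroblasts was read on Affymetrix arrays and grouped by title, per the labels. The deposited value of an array is a log2 RMA value from Expression Console at the level of core exons, per the labels. RMA brings the probe values of all arrays to a common distribution, which can hide a change shared by most transcripts, and it compresses dim values. The deposited values still differed somewhat in distribution, with array medians between 5.64 and 5.75. Per the file headers, the authors' own table gives log2 means of the groups, linear ratios between them and p-values without adjustment. A subset of it, with 7115 clusters, was deposited too and not used. Partek is named in the submitters' processing notes without a version. No source used here names the array design or genome build.

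Deposited log2 values were tested without filter with limma 3.58.1 under R 4.3.3 (lmFit, eBayes, two-sided), as 3 group means over 9 arrays with 6 residual degrees of freedom and 2.07 from the prior. P-values were adjusted by Benjamini-Hochberg over all 41345 clusters within each of 3 contrasts and in the moderated F-test, with a threshold of 0.05. Chromosomes and neighbours came from RefSeq for 23483 symbols, of which 13050 had a mean of at least 5.69 and count as expressed. Tested on simulated arrays for human APE1 against vector control, the fit recovered 53 of the changed clusters at a log2 size of 0.5 and 146 at a size of 1, of 200 changed in each run of 41345. False calls numbered 4 and 8. In the real arrays 4859 clusters were called in that comparison. Their median SE was 0.106 over all clusters and 0.0652 over the members, so the simulated rates do not carry over to the members. Replicate numbers did not pair the arrays: same-numbered arrays correlated at r = -0.075 to 0.104 in their deviations from group means. Tables and figures used Python 3.11.15, pandas 2.3.3 and matplotlib 3.10.9. The members and lists were chosen with earlier results of these data known. All members are accounted for; called members are given with every array, and from each other list at most 2 called genes a direction and comparison could be named, those with the largest differences. Fam8a1, Vimp and Mzb1 of the lists, and Adgre1 (present as Emr1), were not found as symbols. Alternatives were the subtraction of array medians, a second quantile normalization, a filter on dim clusters, limma-trend and fits of 2 groups. Further ones were the dimmest cluster of a gene, the replicate number as a block and each array left out. The subtraction of chromosome or neighbour medians was added later.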

Additional observations from a re-analysis of the deposited data

Results flagged for a closer look

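Hyou1 and Herpud1 were called in opposite directions in the lines set against vector control, and the difference between the lines was itself tested. Hyou1 was −0.41 in human APE1 and 0.29 in mouse Ape1 against vector control. The lines themselves (human APE1 minus mouse Ape1) differed by −0.7 ± 0.07 (SE, limma adjusted p = 0.000441). Herpud1 was −0.62 in human APE1 and 0.32 in mouse Ape1, and the difference between these lines (human APE1 minus mouse Ape1) was −0.94 ± 0.07 (SE, limma adjusted p = 8.05e-05). In all 3 human APE1 arrays both genes lay below all 3 mouse Ape1 arrays. Relative to their neighbours on the chromosome, human APE1 minus mouse Ape1 was −0.37 for Hyou1 and −0.63 for Herpud1. The rises in mouse Ape1 against vector control were not called relative to those neighbours, at 0.17 for Hyou1 (adjusted p = 0.0577) and 0.07 for Herpud1 (adjusted p = 0.414).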

How the results depend on the processing

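The 4 counts of members called stayed within 1.5 times of their reported values under every alternative run except one. In mouse Ape1 against vector control 6 members were called, against 13, after the median of the neighbours was subtracted, an alternative added after seeing the data. With each array left out in turn, 11 to 13 members were called in human APE1 against vector control, 11 to 14 in mouse Ape1 against vector control, 8 to 12 in human APE1 against mouse Ape1 and 15 to 16 in the F-test. Over all clusters, 3185 and 3203 were called in human APE1 against vector control without human APE1 array 1 or 2, against 4859, and 4433 in mouse Ape1 against vector control without mouse Ape1 array 1, against 6681. With the replicate number as a replicate block, 12, 11, 9 and 16 members were called in these comparisons and the F-test, against 13, 13, 12 and 18. Of 38 single calls, 25 held under every setting other than the subtraction of chromosome or neighbour medians, and 0 changed sign there. The replicate block ended the calls of Derl1 in human APE1 (adjusted p = 0.0833), Hyou1 (0.06) and Erp44 (0.0653) in mouse Ape1, and Dnajb9 (0.0586), Calr (0.0818) and P4hb (0.0785) between human APE1 and mouse Ape1. The added subtractions turned 3 differences: Xbp1 in human APE1 to −0.02 and Dnajc3 between human APE1 and mouse Ape1 to −0.19 (neighbours), and Pdia6 in mouse Ape1 to −0.01 (chromosome). The cause was not tested. With 3 arrays a group, no difference of a member smaller than that of Calr (−0.22) was called on the values as deposited, and values of Derl3 lie at the dim end, where RMA compresses differences.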
